A study of Homo sapiens with 4 samples.

Results

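The miR-25 and miR-92 seed family was followed in small RNA sequencing of extracellular vesicles (EVs) from MDA-MB-231, an established line of triple-negative breast cancer. Its members were chosen by name as the rows for hsa-miR-25-3p, hsa-miR-92a-3p, hsa-miR-92b-3p, hsa-miR-32-5p and hsa-miR-363-3p. All 5 were among the 1586 named miRNAs of the deposited counts, which come as a separate table for each replicate number. The table of replicate 1 listed 5 members and that of replicate 2 listed 4, because hsa-miR-363-3p was not listed there.

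The study compared 2 groups of 2 libraries to ask how glucose starvation changes the miRNAs that cancer cells secrete. Wild-type cells grown with 10% fetal bovine serum were moved at near confluence to EV-free medium containing glucose (231 EV) or to medium without glucose (231 -G EV) for 12 h, and the EVs were then pelleted at 110000 × g for 70 min. The replicate number also named the library preparation. For number 1, RNA modifications were first removed and inserts of 14 to 40 nt were kept, and for number 2 an NEBNext small RNA kit was used. A pair below is the 2 libraries of 1 number, and the effect of preparation cannot be told apart from other differences between pairs. Nothing in the labels says that the replicates were separate cultures, so p-values measure only the spread between these libraries. The RNA is that of EVs in bulk, so fewer vesicles of a kind and less of a miRNA per vesicle cannot be told apart.

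A miRNA finds its targets mainly through its seed, bases 2 to 8 from the 5′ end, which pairs with the messenger RNA. miRNAs with the same seed therefore share many predicted targets, and for this family these are known to include the pro-apoptotic gene BCL2L11. The members are made from separate loci. miR-25 belongs to the MIR106B cluster, miR-92a to the oncogenic MIR17HG cluster and to its paralogue on the X chromosome, which also encodes miR-363, while miR-92b and miR-32 are made alone. miR-92a and miR-25 are known to be abundant in red blood cells too.

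The mature sequences, taken from RefSeq (GRCh38.p14), are shown because the rule that joins the members is their shared seed, in capitals, and because the other bases show how the reads can be told apart. All 5 members matched by name and each is 22 nt long.
hsa-miR-25-3p: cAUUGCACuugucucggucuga
hsa-miR-92a-3p: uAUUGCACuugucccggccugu
hsa-miR-92b-3p: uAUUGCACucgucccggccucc
hsa-miR-32-5p: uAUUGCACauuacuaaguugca
hsa-miR-363-3p: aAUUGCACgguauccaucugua
Of 2370 mature human miRNAs in the RefSeq table, 6 carried this seed, namely the 5 members and hsa-miR-367-3p, which was listed in neither table of counts. Outside the seed the family fell into a close and a distant group. miR-25-3p differed from miR-92a-3p at 4 positions (U1C, C14U, C18U and U22A, with the base of miR-92a-3p first and positions counted from 1 at the 5′ end). miR-92b-3p differed from miR-92a-3p at 3 positions (U10C, G21C and U22C), and a read that lacks the last 2 bases is told from it by U10C alone. miR-32-5p and miR-363-3p differed from miR-92a-3p at 11 and 12 positions. How reads that match 2 mature miRNAs about equally were assigned is not given in the sources used here, so the split between miR-92a-3p and miR-92b-3p is less certain than that between miR-25-3p and the rest.

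On GRCh38, with genes from GENCODE 29, the hairpin of miR-25 lies at chr7:100093560-100093643 on the minus strand, within MCM7, a subunit of the replicative DNA helicase, and overlaps no exon of it. The hairpin of miR-32 (chr9:109046229-109046298, minus strand) likewise lies in TMEM245 outside its exons. miR-92a-3p has 2 loci with identical mature sequences. MIR92A1 (chr13:91351314-91351391, plus strand) lies in the non-coding host gene MIR17HG and overlaps annotated exon sequence of it, and MIR92A2 (chrX:134169538-134169612, minus strand) lies in an exon of the non-coding transcript AC002407.1. MIR363 (chrX:134169378-134169452, minus strand) sits in the same exonic transcript. MIR92B (chr1:155195177-155195272, plus strand) overlaps an exon of the non-coding gene AC234582.1. The reads of miR-92a-3p cannot be assigned to chromosome 13 or X.

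The libraries differed greatly in depth. Pair 1 totalled 18397 reads (231 EV) and 15597 reads (231 -G EV), and pair 2 totalled 224966 and 170894 reads. One read was therefore worth 54.4, 64.1, 4.45 and 5.85 CPM (reads divided by the total of the library and multiplied by 1000000). hsa-miR-182-5p held 51.0% of the 231 EV library of pair 1 and 2.73% of its 231 -G EV library, but 0.254% and 0.250% in pair 2. In its share of miR-182-5p, 231 EV of pair 1 stood apart from the other 3 libraries. Both libraries of pair 1 were rich in hsa-miR-451a, at 19.4% (231 EV) and 40.8% (231 -G EV), against 0.131% and 0.0398% in pair 2. CPM values share a fixed total, so the main values of pair 1 are also given after subtracting the reads of miR-182-5p from it. That choice is not neutral. Subtracting miR-182-5p lowered the summed family ratio of pair 1 from 2.64 to 1.33, whereas subtracting miR-451a raised it to 3.59. All 4 miRNAs listed as typical of the cell line (such as hsa-miR-21-5p and hsa-miR-221-3p) had reads in every library, at a summed 2.09% and 3.01% in pair 1 (4.27% and 3.09% without miR-182-5p in the totals, which turns the direction) and 35.9% and 28.7% in pair 2. Most of these reads were those of hsa-miR-21-5p (68029 and 39805 in pair 2), whereas hsa-miR-221-3p had 4346 and 4463 reads there. The 4 did not move together. In CPM, 231 -G EV over 231 EV of pair 2 was 0.770 for hsa-miR-21-5p and 0.695 for hsa-miR-100-5p. It was 1.35 for hsa-miR-221-3p and 1.53 for hsa-miR-222-3p. In pair 1 the same ratios, in that order, were 1.425, 3.11, 0.643 and 0.674. Of 4 epithelial miRNAs listed as low in this line (such as hsa-miR-200c-3p), 3 or 4 had reads in each library, at a summed 0.0761% and 0.340% in pair 1 (0.155% and 0.349% without miR-182-5p) and 0.0689% and 0.0123% in pair 2. Single miRNAs held most of these reads. In pair 1 hsa-miR-200b-3p had 9 and 42 reads, whereas hsa-miR-141-3p had 2 and 1. In pair 2 hsa-miR-205-5p had 109 and 3 reads, and each of the others had 26 or fewer.

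Among the 4 members listed in both tables, only miR-25-3p was higher in 231 -G EV than in 231 EV in both pairs, and it led the family in 3 of the 4 libraries. It had 53 reads in 231 EV and 144 in 231 -G EV of pair 1, and 3023 and 3868 reads in pair 2. These counts came to 2881 CPM (95% Wilson interval 2203 to 3766) and 9233 CPM (7848 to 10859) in pair 1, and to 13438 CPM (12970 to 13922) and 22634 CPM (21939 to 23350) in pair 2. The 2 groups overlapped as wholes, since 231 EV of pair 2 lay above 231 -G EV of pair 1, but within a pair the starved library was higher beyond its counting error. The ratio of 231 -G EV over 231 EV was 3.20 (95% exact interval 2.32 to 4.48) in pair 1 and 1.68 (1.61 to 1.77) in pair 2. In Fisher's exact tests on the reads, two-sided and adjusted by Benjamini-Hochberg over all miRNAs of the pair, the adjusted p was 4.76e-13 and 3.11e-103. These tests compare 2 libraries and not the media, and they cover counting error only, since copies made by PCR were counted without molecular identifiers. By rank, miR-25-3p was number 20 and 16 among the miRNAs of pair 1 and number 15 and 8 in pair 2, with 231 EV first.

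miR-92a-3p, encoded at both MIR92A1 and MIR92A2, did not follow miR-25-3p in pair 2. Pair 1 held 60 reads of it in 231 EV and 106 in 231 -G EV, and pair 2 held 1801 and 1337. Its level was 3261 CPM (2535 to 4195) and 6796 CPM (5623 to 8213) in pair 1, a ratio of 2.08 (1.5 to 2.91, Fisher's exact test, adjusted p = 6.72e-05). The call was lost without miR-182-5p in the totals, where the ratio was 1.05, and with TMM, where it was 1.16. In pair 2 it was 8006 CPM (7646 to 8382) and 7824 CPM (7417 to 8252), a ratio of 0.977 (0.910 to 1.05, Fisher's exact test, adjusted p = 0.803). The level was thus similar in 3 libraries and lower in 231 EV of pair 1, the library led by miR-182-5p.

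The 3 other members were scarce. miR-92b-3p had 1 and 4 reads in pair 1 and 122 and 78 reads in pair 2. Its ratio was 4.72 in pair 1, with a counting interval of 0.467 to 232 that sets hardly any bound (2.38, 0.235 to 117, without miR-182-5p in the totals), and 0.842 (0.625 to 1.13) in pair 2. miR-32-5p had 0 reads in 231 EV of pair 1 and 1 read in 231 -G EV, so no fold was formed. The 0 allows up to 163 CPM when taken as up to 3 reads, or 209 CPM as the upper end of the Wilson interval. In pair 2 it had 70 and 47 reads, or 311 and 275 CPM, a ratio of 0.884 (0.597 to 1.30). With library totals as scaling, neither miRNA passed Fisher's exact test in either pair, and at this depth only large changes were detectable in pair 1.

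miR-363-3p, the X-linked member, was known from pair 1 alone. It had 15 reads (815 CPM, 494 to 1345) in 231 EV and 31 reads (1988 CPM, 1401 to 2820) in 231 -G EV, a ratio of 2.44 (1.28 to 4.86). Fisher's exact test gave an adjusted p of 0.0463 over the 670 miRNAs with a read in the pair, and of 0.0908 when miRNAs listed at 0 in both libraries were counted in the adjustment, an alternative chosen after seeing the data. The call was also lost without miR-182-5p in the totals, where the ratio was 1.23, and with TMM, where it was 1.36.

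**Figure D1:**
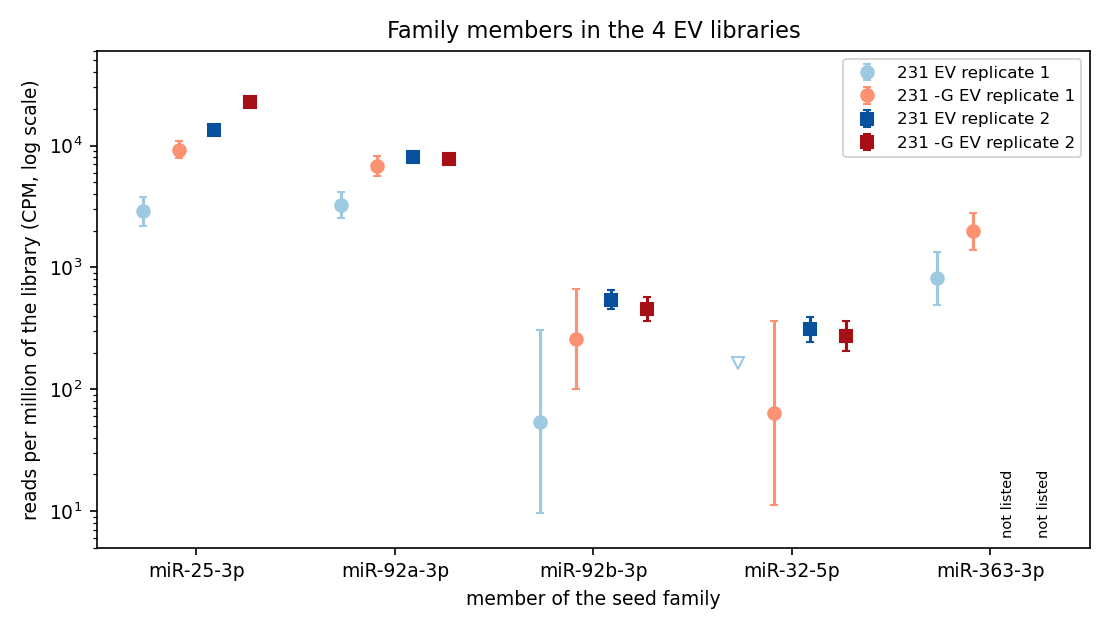
Level of each member in CPM (log scale) in the 4 libraries, with 95% Wilson intervals as bars and 1 point per library. The open triangle is the limit that a count of 0 allows when taken as up to 3 reads (163 CPM). miR-25-3p rose within both pairs, whereas miR-92a-3p sat at 8006 and 7824 CPM in pair 2.

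The members' calls with library totals as scaling are read beside those of all miRNAs. In pair 1, Fisher's exact test called 3 of 5 members higher in 231 -G EV and 0 lower, where 53 of 670 miRNAs (7.91%) were called higher and 12 (1.79%) lower. In pair 2, 1 of 4 members was called higher and 0 lower, where 61 of 618 (9.87%) were called higher and 54 (8.74%) lower. Both pairs called miR-25-3p higher, as they did 8 of the 295 miRNAs with reads in both (2.71%), and 1 of the 295 (0.339%) was called lower in both. The median ratio of the members above 0 in both libraries was 2.82 in pair 1 and 0.931 in pair 2, beside 1.18 over 267 miRNAs and 1.05 over 405. These medians cover 4 members each but not the same 4, with miR-363-3p in pair 1 and miR-32-5p in pair 2. That of pair 1 also takes in miR-92b-3p on 1 and 4 reads. Without miR-182-5p in the totals, the median in pair 1 was 1.42 for the members and 0.594 for 266 miRNAs. Among miRNAs with at least 10 reads in both libraries, whose depth is nearer that of the leading members, the median ratio was 1.65 in pair 1 (67 miRNAs, or 0.837 over 66 without miR-182-5p) and 1.02 in pair 2 (204 miRNAs).

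The scaling changed the size of the members' ratios and some of their calls. Without miR-182-5p in the totals, the ratio of pair 1 was 1.61 (1.17 to 2.26, Fisher's exact test, adjusted p = 0.0328) for miR-25-3p, close to its 1.68 in pair 2. The same setting gave 1.05 (0.758 to 1.47) for miR-92a-3p and 1.23 (0.644 to 2.45) for miR-363-3p, neither of which was then called, so that 1 of 5 members was called higher beside 18 of 669 miRNAs (2.69%). TMM scaling, which sets libraries level by the bulk of their miRNAs, gave 1.78 (1.29 to 2.49) for miR-25-3p and 1.16 (0.838 to 1.62) for miR-92a-3p in pair 1. In pair 2 neither left-out miRNA mattered, and TMM gave 1.59 (1.51 to 1.66) and 0.920 (0.857 to 0.988).

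Relative to hsa-miR-16-5p, a common RT-qPCR reference, the pairs parted. Its share of the reads in pair 1 was 0.380% in 231 EV and 0.256% in 231 -G EV, whereas pair 2 had 7.04% and 11.1%. Per read of it, miR-25-3p was 4.75 times (95% exact interval, with the counting error of miR-16-5p, 2.80 to 8.09) as high in 231 -G EV as in 231 EV in pair 1 and 1.07 times (1.01 to 1.13) in pair 2, where the call was lost (Fisher's exact test, adjusted p = 0.0527). On the same scale miR-92a-3p was 3.09 times (1.82 to 5.27) as high in pair 1 and 0.620 times (0.576 to 0.668) in pair 2. miR-363-3p was 3.62 times (1.65 to 8.08) as high in pair 1. In pair 2 miR-92b-3p was 0.534 times (0.396 to 0.716, Fisher's exact test, adjusted p = 0.000101) and miR-32-5p 0.561 times (0.379 to 0.824, Fisher's exact test, adjusted p = 0.0111) as high. On this scale 3 of 5 members were called higher and 0 lower in pair 1, beside 9.42% and 0.747% of all miRNAs, and 0 of 4 were called higher and 3 lower in pair 2, beside 1.78% and 21.2%.

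**Figure D2:**
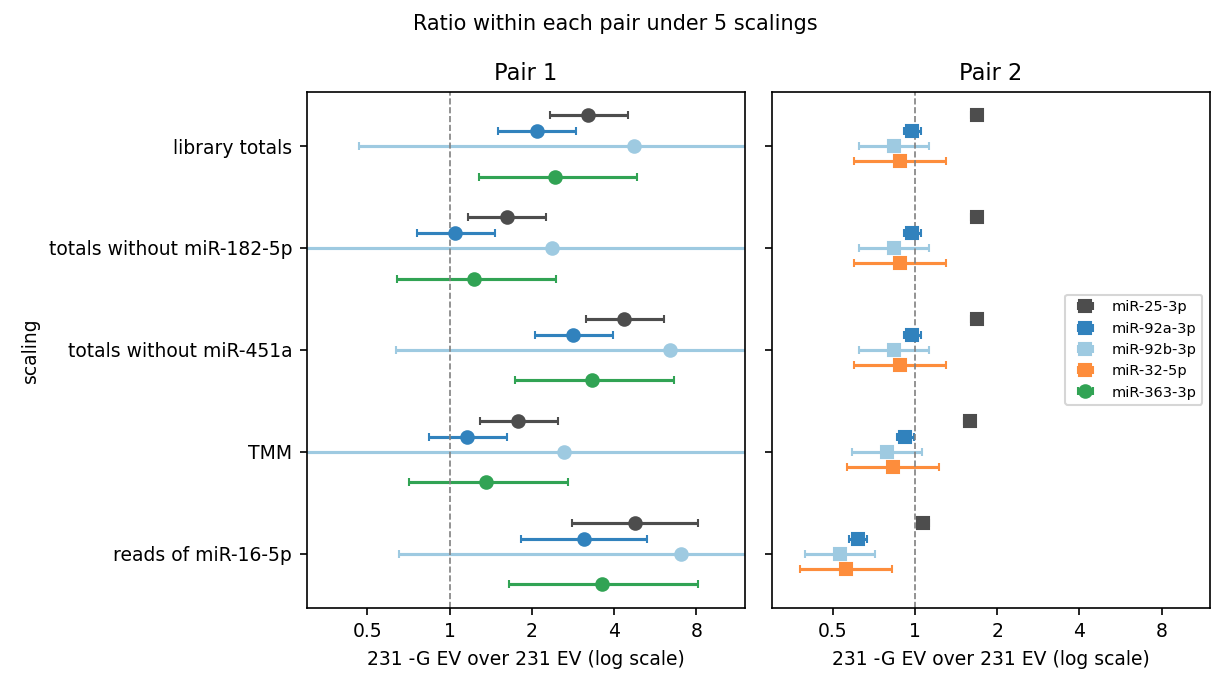
Ratio of 231 -G EV over 231 EV (log scale) for the members under 5 scalings, with 95% exact intervals as bars (cut at the frame for miR-92b-3p in pair 1) and the dashed line at no change. miR-25-3p stays to the right of the line in both panels, at 1.61 to 4.75 in pair 1 and 1.07 to 1.68 in pair 2, whereas the other 3 members of pair 2 lie at or left of it. miR-363-3p has no point in pair 2 and miR-32-5p none in pair 1.

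Within the family, the balance moved towards miR-25-3p in the starved library of each pair, a measure that the library total does not touch. miR-25-3p made up 41.1% (33.0 to 49.7) of the family's reads in 231 EV and 50.3% (44.6 to 56.1) in 231 -G EV of pair 1, and 60.3% (58.9 to 61.6) and 72.6% (71.4 to 73.8) in pair 2. The share of miR-92a-3p was 46.5% (38.1 to 55.1) and 37.1% (31.7 to 42.8) in pair 1, and 35.9% (34.6 to 37.2) and 25.1% (23.9 to 26.3) in pair 2. For each of these miRNAs the intervals of the 2 libraries met in pair 1 and did not meet in pair 2. There were 0.883 reads of miR-25-3p per read of miR-92a-3p in 231 EV and 1.36 in 231 -G EV of pair 1, against 1.68 and 2.89 in pair 2. The odds ratio between the libraries was 1.54 (95% exact interval 0.960 to 2.47) in pair 1 and 1.72 (1.58 to 1.88) in pair 2. The 2 pairs thus gave values of like size, of which the first had an interval that included 1.

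miR-25-3p had more reads than miR-92a-3p in 3 libraries, where the intervals of their shares did not meet, although the intervals of their CPM in 231 -G EV of pair 1 did. In 231 EV of pair 1 miR-92a-3p stood first, although its interval met that of miR-25-3p. miR-363-3p followed them in pair 1 with 11.6% (7.18 to 18.3) and 10.8% (7.74 to 15.0). miR-92b-3p held 0.775% and 1.40% in pair 1 and 2.43% and 1.46% in pair 2. miR-32-5p held 0% and 0.350% in pair 1, with intervals that met those of miR-92b-3p, and 1.40% and 0.882% in pair 2, where the intervals of the 2 miRNAs did not meet. Since miR-363-3p was not listed in pair 2, shares in the 2 pairs are over 5 and 4 members.

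**Figure D3:**
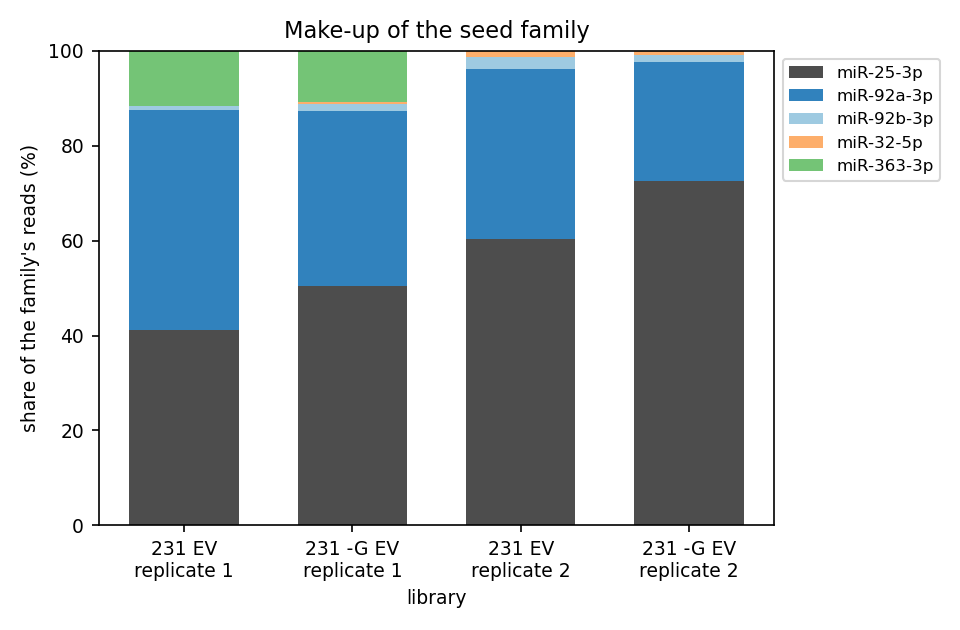
Share of the family's reads (%) taken by each member in the 4 libraries, as stacked bars that each sum to 100%. The segment of miR-25-3p grew from 41.1% to 50.3% in pair 1 and from 60.3% to 72.6% in pair 2.

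Summed over the 4 members listed in both tables, the family held 114 and 255 reads in pair 1, or 0.620% (0.516 to 0.744) of 231 EV and 1.63% (1.45 to 1.85) of 231 -G EV. In pair 2 it held 5016 and 5330 reads, or 2.23% (2.17 to 2.29) and 3.12% (3.04 to 3.20). The ratio of 231 -G EV over 231 EV was 2.64 (2.11 to 3.32) in pair 1 and 1.40 (1.35 to 1.45) in pair 2. In pair 2 miR-25-3p alone was above its 231 EV level, as the other 3 members had ratios of 0.842 to 0.977. The sum was 1.33 (1.06 to 1.67) in pair 1 without miR-182-5p in the totals, and 0.888 (0.849 to 0.928) in pair 2 relative to miR-16-5p.

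Levels also differed between the pairs. From pair 1 to pair 2 the CPM of miR-25-3p was 4.66 times (3.56 to 6.24) as high in 231 EV and 2.45 times (2.08 to 2.92) as high in 231 -G EV. For miR-92a-3p the same ratios were 2.45 (1.90 to 3.23) and 1.15 (0.944 to 1.42). Without miR-182-5p in the totals they were 2.29 (1.75 to 3.07) and 2.39 (2.02 to 2.84) for miR-25-3p, and 1.21 (0.933 to 1.59) and 1.12 (0.921 to 1.38) for miR-92a-3p. The lowest of the 4 libraries was 231 EV of pair 1 for both miRNAs.

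Across the pairs, with the replicate number as a block, the quasi-likelihood test of edgeR called 0 of 384 miRNAs (0%), where a call needed a log2 fold change beyond 1 in either direction and an adjusted p below 0.05. A total of 5 miRNAs had an unadjusted p under 0.05, none of them a member, and DESeq2 and limma also called 0, with 6 and 21 miRNAs at that unadjusted p. The log2 fold change of miR-25-3p was 1.21 (SE 0.87, edgeR adjusted p = 0.999), which lay 1.00 above the median of all 384 miRNAs. For miR-92a-3p it was 0.50 (SE 0.89), for miR-92b-3p 0.44 (SE 1.21) and for miR-32-5p 0.22 (SE 1.41). Limma gave 0.98 (SE 1.05) for miR-92b-3p and 2.92 (SE 2.20) for miR-32-5p, and DESeq2 gave 0.49 (SE 1.54) and 0.66 (SE 2.22). In edgeR each of these errors exceeded the change, other than that of miR-25-3p, and the adjusted p of each of the 4 was 0.999. The range of adjusted p over 8 alternatives was 0.964 to 1 for miR-25-3p. The median log2 fold change of all miRNAs was 0.20, with 60.2% of them above 0, and was -0.14 with 43.2% above 0 after TMM. miR-25-3p lay 0.89 above the median after TMM and miR-92a-3p 0.18. miR-363-3p could not enter this comparison.

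The other miRNAs of the members' clusters were followed because a cluster is transcribed as 1 primary RNA. Of 21 such mature miRNAs, 18 were listed in either table. In pair 1, 11 had a read, of which 5 were higher and 6 lower in 231 -G EV, and 0 were called by Fisher's exact test, where 66.3% of the 267 miRNAs above 0 in both libraries were higher and 7.91% and 1.79% of all were called higher and lower. Without miR-182-5p in the totals these were 4 higher and 7 lower, beside 91 higher and 175 lower of the 266 miRNAs above 0 in both libraries. Under this scaling 1 mate was called lower, beside 5.08% of all miRNAs. In pair 2, 15 had a read, 12 were higher and 3 lower, 5 were called higher and 1 lower. In pair 2, 51.6% of the 405 miRNAs above 0 in both libraries were higher, and 9.87% and 8.74% of all were called higher and lower. The median ratio of the cluster mates was 0.786 in pair 1 (0.396 without miR-182-5p) and 1.35 in pair 2. The edgeR test across pairs called 0 of the 14 cluster mates in the fit, and 0 had an unadjusted p under 0.05.

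In the MIR106B cluster, miR-93-5p, which has the seed of miR-17, was also higher in 231 -G EV of pair 2. It had 19 and 34 reads in pair 1 and 3416 and 3824 reads in pair 2. Its ratio was 2.11 (1.17 to 3.92, Fisher's exact test, adjusted p = 0.0837) in pair 1, or 1.06 (0.590 to 1.97) without miR-182-5p in the totals, and 1.47 (1.41 to 1.54, Fisher's exact test, adjusted p = 2.25e-60) in pair 2. Reads of miR-25-3p per read of miR-93-5p changed by an odds ratio of 1.52 (0.749 to 3.01) in pair 1 and 1.14 (1.07 to 1.22) in pair 2. miR-106b-3p from the same transcript went the other way in pair 2, with 5 and 12 reads in pair 1 and 258 and 149 reads in pair 2, where its ratio was 0.760 (0.617 to 0.934, Fisher's exact test, adjusted p = 0.0429). Against it miR-25-3p changed by an odds ratio of 1.13 (0.298 to 3.66) in pair 1 and 2.22 (1.79 to 2.75) in pair 2. miR-106b-5p, from the other arm of that hairpin, had 16 and 10 reads in pair 1 and 14 and 20 in pair 2, where its ratio was 1.88 (0.903 to 4.03). Against it miR-25-3p changed by an odds ratio of 4.31 (1.72 to 11.4) in pair 1 and 0.896 (0.418 to 1.87) in pair 2. miR-25-3p and miR-106b-3p thus did not keep a fixed ratio in the EV libraries of pair 2.

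In the MIR17HG cluster, 2 mates were higher and 4 lower in 231 -G EV of pair 1, with 0 called and a median ratio of 0.715. That median is over the 4 above 0 in both libraries. Without miR-182-5p in the totals their ratios were 0.832 (miR-17-5p), 0.396 (miR-19a-3p), 0.324 (miR-20a-5p) and 0.297 (miR-19b-3p). In pair 2, 7 of 9 listed mates were higher and 2 lower, and 4 were called higher and 0 lower, beside 9.87% and 8.74% of all miRNAs. The lower ones were miR-17-3p (24 and 11 reads) and miR-18a-3p (14 and 6 reads). miR-20a-5p had 33 and 18 reads in pair 1 and 727 and 961 in pair 2, a ratio of 0.643 (0.341 to 1.18) and 1.74 (1.58 to 1.92). Without miR-182-5p in the totals its ratio in pair 1 was 0.324 (0.172 to 0.593), and it was the mate called lower there (Fisher's exact test, adjusted p = 0.00224). miR-19b-3p, the member of this cluster known as its main oncogenic part in lymphoma together with miR-19a, had 2 and 1 reads in pair 1 and 571 and 885 in pair 2, where its ratio was 2.04 (1.83 to 2.27). miR-19a-3p had 3 and 2 reads in pair 1 and 193 and 253 in pair 2, where its ratio was 1.73 (1.42 to 2.09). These 3 were called higher in pair 2 by Fisher's exact test, as was miR-18a-5p. miR-17-5p had 20 and 28 reads in pair 1 and 42 and 40 in pair 2, ratios of 1.65 (0.898 to 3.09) and 1.25 (0.792 to 1.98), and 0.832 (0.452 to 1.56) in pair 1 without miR-182-5p in the totals. In pair 2 the intervals of miR-20a-5p, miR-19a-3p and miR-19b-3p all lay above that of miR-92a-3p (0.910 to 1.05). miR-19b-3p is also encoded in the X-linked cluster, so its reads, counted here under MIR17HG, cannot be assigned to chromosome 13 or X either. The other mates of the X-linked cluster had at most 3 reads in any library, and miR-106a-5p and miR-20b-5p among them are near-identical to miR-17-5p and miR-20a-5p, so their split is uncertain.

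**Figure D4:**
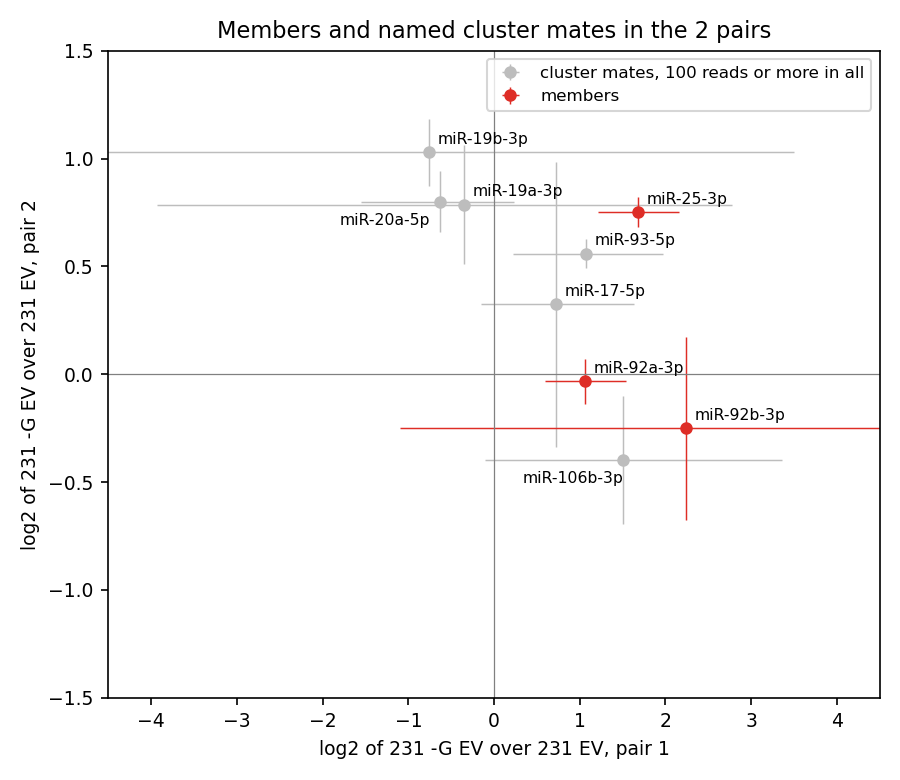
Log2 ratio of 231 -G EV over 231 EV in pair 1 (horizontal) against pair 2 (vertical) for the members with reads in all 4 libraries (red) and for cluster mates with at least 100 reads in all (grey), with 95% exact intervals as bars (cut at the frame). miR-25-3p and miR-93-5p lie to the upper right, miR-92a-3p at the level of no change in pair 2, and miR-19b-3p highest in pair 2 on 3 reads in pair 1.

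Few reads came from the opposite strands of the members' hairpins. Of 6 passenger strands, 2 were listed in replicate 1 and 4 in replicate 2, with at most 34 reads each. miR-25-5p had 1 and 0 reads in pair 1 and 34 and 15 reads in pair 2, so that it made up 1.11% (0.797 to 1.55) of the reads of its hairpin in 231 EV and 0.386% (0.234 to 0.636) in 231 -G EV of pair 2. The fall in this share, with intervals that did not meet, came with more miR-25-3p reads and fewer miR-25-5p reads. miR-92b-5p made up 10.9% (6.75 to 17.3) and 11.4% (6.29 to 19.7) of its hairpin in pair 2, the same within counting error.

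The miRNAs whose levels ran most like those of the 2 leading members were sought among 77 with at least 5 reads in every library, by the distance of their log2 CPM, centred on the mean of the 4 libraries. For miR-92a-3p the nearest were hsa-let-7d-5p (0.308), hsa-miR-151a-3p (0.394) and hsa-miR-26a-5p (0.426), where the median distance was 1.76. For miR-25-3p they were hsa-miR-191-5p (0.722), hsa-miR-186-5p (0.989) and its cluster mate hsa-miR-106b-3p (1.03), where the median was 2.10. The 2 members lay 1.23 apart, farther than any of these. The distance also takes in the differences between the pairs. In pair 2, hsa-miR-191-5p (14433 and 13330 CPM) and hsa-miR-106b-3p (1147 and 872 CPM) were lower in 231 -G EV, where miR-25-3p was higher. hsa-miR-186-5p was higher there too (1285 and 2007 CPM). In pair 1 hsa-miR-106b-3p had only 5 and 12 reads.

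Markers of blood cells moved differently in the 2 pairs. The 5 erythroid miRNAs (hsa-miR-451a, hsa-miR-144-3p, hsa-miR-144-5p, hsa-miR-486-5p and hsa-miR-486-3p) held a summed 20.0% of 231 EV and 42.8% of 231 -G EV in pair 1, with 3 and 4 of 5 above 0, and 0.253% and 0.0790% in pair 2, with 4 of 4 listed above 0. Without miR-182-5p in the totals, the erythroid sums of pair 1 were 40.9% and 44.0%. Most of these reads were those of hsa-miR-451a, with 3577 and 6364 in pair 1. There hsa-miR-486-5p had 96 and 295 reads and hsa-miR-486-3p 0 and 5. hsa-miR-144-3p stayed at 13 and 13 reads and hsa-miR-144-5p at 0 and 0. The 4 leukocyte and platelet miRNAs held 8 and 27 reads (0.0435% and 0.173%, or 0.0887% and 0.178% without miR-182-5p) in pair 1 and 0.820% and 0.393% in pair 2. In pair 1 these were 2 and 16 reads of hsa-miR-142-5p, 0 and 6 of hsa-miR-150-5p, 3 and 3 of hsa-miR-142-3p, and 3 and 2 of hsa-miR-223-3p. Both sums were lower in 231 -G EV of pair 2, where miR-25-3p was higher. In pair 1 the sums moved with miR-25-3p, miR-92a-3p and miR-363-3p, and their part in these results was not tested. Without hsa-miR-451a in the totals, the ratio in pair 1 was 4.36 (3.16 to 6.09) for miR-25-3p and 2.84 (2.05 to 3.96) for miR-92a-3p.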

How the data were processed

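The authors deposited whole-number read counts per mature miRNA, beside values that the file headers call CPM for replicate 1 and TPM for replicate 2. Both of these deposited columns equalled the count over the library total times 1000000, so both are CPM. The study's methods describe trimming, removal of other small RNAs, and matching to miRBase. The submitters' processing notes name hg38, Bowtie and Bowtie2 without versions, and do not say how each preparation was handled. Preparation by adapter ligation and PCR can favour particular ends, so levels are compared within a pair.

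Depth ran from 15597 to 224966 reads. The counts were fitted with edgeR 4.0.16 (R 4.3.3), library totals as scaling and the replicate number as a block, over the 384 miRNAs that both tables list and that had reads in at least 2 libraries. The pairing comes from the labels, by which a number marks a shared preparation, and after subtracting group means, libraries of the same number correlated at 0.59 across miRNAs. Fisher's exact tests and intervals used SciPy 1.17.1, Wilson intervals were used for shares, and p-values were two-sided. DESeq2 1.42.0, limma 3.58.1 on log2(CPM + 1), TMM, other filters, other totals and pseudocounts of 1 and 100 CPM were the alternatives. Statistics were tested on simulated data.

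Named were all members, cluster mates with at least 100 reads in total, the miRNAs that bear on scaling, and the 3 nearest in pattern to each of miR-25-3p and miR-92a-3p. miR-106b-5p, miR-18a-5p, miR-17-3p and miR-18a-3p were named, and cluster-mate ratios, marker sums and ratios between replicates without miR-182-5p added, after the values were seen. Reads and ratios of single marker miRNAs, and levels of the nearest miRNAs, were added then too. Members and lists were chosen with earlier results of these data known. miRNAs of only 1 table were not compared across pairs, and hsa-miR-367-3p could not be added.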

Additional observations from a re-analysis of the deposited data

Results flagged for a closer look

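hsa-miR-363-3p lay outside the comparison across the pairs, because only the table of replicate 1 listed it. There its ratio of 231 -G EV over 231 EV was 2.44, above the counting error of both libraries with their totals as scaling, and it was not called without miR-182-5p in the totals.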

How the results depend on the processing

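With the replicate number left out as a block, edgeR again called 0 miRNAs, and the log2 fold change of miR-25-3p was 0.96 (SE 2.43). One miRNA, not a member, was called with no filter on low counts (hsa-miR-206) and 1 without miR-182-5p in the totals (hsa-miR-449c-5p), both named after their values were seen. The summed family ratio of pair 1 was 1.33 without miR-182-5p, 3.59 without miR-451a, 1.47 with TMM and 3.91 relative to miR-16-5p, and that of pair 2 was 1.32 with TMM and 0.888 relative to miR-16-5p. Pair by pair, with no test, the log2 ratio was 0.75 and 1.68 for miR-25-3p, -0.033 and 1.06 for miR-92a-3p, and -0.25 and 2.24 for miR-92b-3p, without replicate 1 and without replicate 2. For miR-32-5p it was -0.18 without replicate 1, and its log2 fold change with TMM was -0.028. Without miR-182-5p, miR-17-5p turned to 0.832 in pair 1. Of 132 recomputed values, 105 were classed as the same as the main value. Depending on the value, this meant an equal count of calls, a kept direction, a kept direction and call, or a ratio within the main interval. Neither pseudocount turned a direction, although miR-92b-3p fell from 4.72 to 2.31 in pair 1 with CPM + 100. The cause of the other changes was not tested. Depth limits pair 1 most, where 3 members had 15 reads or fewer in 231 EV.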
